A study of Mus musculus with 8 samples.

Results

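The genes described here are 7 cytochrome P450 enzymes, the nuclear receptors Nr1i2 and Nr1i3, and the efflux transporter Abcb1a, which together handle drugs and other foreign compounds in the gut wall. They were taken by gene symbol, through the accession that the array gives each probe. All 10 genes were found, on 13 of the 39429 probes of the array, and all 10 were among the 21302 genes tested. Cytochrome P450 enzymes of the Cyp2c, Cyp3a and Cyp2b families are haem proteins of the endoplasmic reticulum that oxidise lipids, steroids and drugs, and in the small intestine they sit mainly in enterocytes. Nr1i2 encodes PXR and Nr1i3 encodes CAR, receptors that bind foreign compounds or bile acids, pair with RXR and switch on P450 and transporter genes.

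Small intestinal RNA was taken from C57BL/6J Min/+ mice, which carry 1 truncated copy of the tumour suppressor gene Apc in every group and develop intestinal adenomas. The Western male and Western female groups ate a diet changed from AIN-93G, with much fat and little fiber, vitamin D, calcium and folate, in which milk gave 66.4% and plant oils 33.6% of the fat. The Control male and Control female groups ate unmodified semisynthetic AIN-93G, and the feeding experiment is labelled as 18 months long in all groups. Each group had 2 arrays, each made from the RNA of 1 to 3 mice, and the labels do not say which mice were pooled or whether arrays of a group share mice, so p-values measure only how far these arrays vary, some of which may be technical. The tissue is whole small intestine, so fewer enterocytes and less RNA per enterocyte cannot be told apart.

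Levels are given as log2 processed signal relative to the 75th percentile of each array, so that 0 is a signal at that percentile and a step of 1 is a 2-fold change. That percentile lay between 486 and 902 signal units, and 55.1% to 75.6% of probes were well above background. All 13 enterocyte markers and all 5 markers of the distal small intestine were well above background on all 8 arrays. The same held for the 5 proximal small intestine markers measured, of 6 listed. Of the 6 colon markers measured, 5 or 6 were well above background on each array. Of 10 hepatocyte markers, Alb and Ahsg were well above background on 0 arrays and Serpinc1 on at most 1. Fgb and Fga were so on 0 Western arrays and on 2 control arrays each. Ttr, Apoh, Serpina1a, Cyp2e1 and Tat were so on all 8. Serpina1a had a mean of 4.18 on the Western diet and 3.90 on the control diet. The library labelled Control female 1 had the Y-linked transcript Eif2s3y at 1.90, against 1.75 to 2.45 on the 4 male arrays and -7.28 to -5.58 on the other 3 female arrays, and its deposited file is named for the Western diet, unlike its label. Control female 2 had the highest share of probes above background (75.6%). Control male 1 had smooth muscle markers 3.53 above and fibroblast markers 2.69 above the mean of the 8 arrays on the log2 scale. Diet differences are therefore also given without single arrays.

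On the Western diet the 3 Cyp2c genes, Cyp3a11 and Cyp3a25 measured higher on average, by log2 0.51 to 1.56. The other P450 genes differed by less, with 0.26 for Cyp2b10 and -0.11 for Cyp3a13, as did the receptors and the transporter with -0.14 to 0.29. No gene of the array passed the test for diet. By limma, 0 of the 10 genes and 0 of the 21302 genes tested (0%) had an adjusted p under 0.05 for the diet effect averaged over the sexes. At an unadjusted p under 0.05 the fit placed 138 genes higher (0.648% of those tested) and 773 lower (3.63%), and 2 of the 10 genes, Cyp2c55 and Cyp2c66, were among the higher ones and 0 among the lower. The median difference of the 10 genes was 0.40, with 7 above and 3 below 0, beside a median of -0.06 over all genes tested (0.04 after quantile normalization), of which 40.5% lay above 0.

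**Figure D1:**
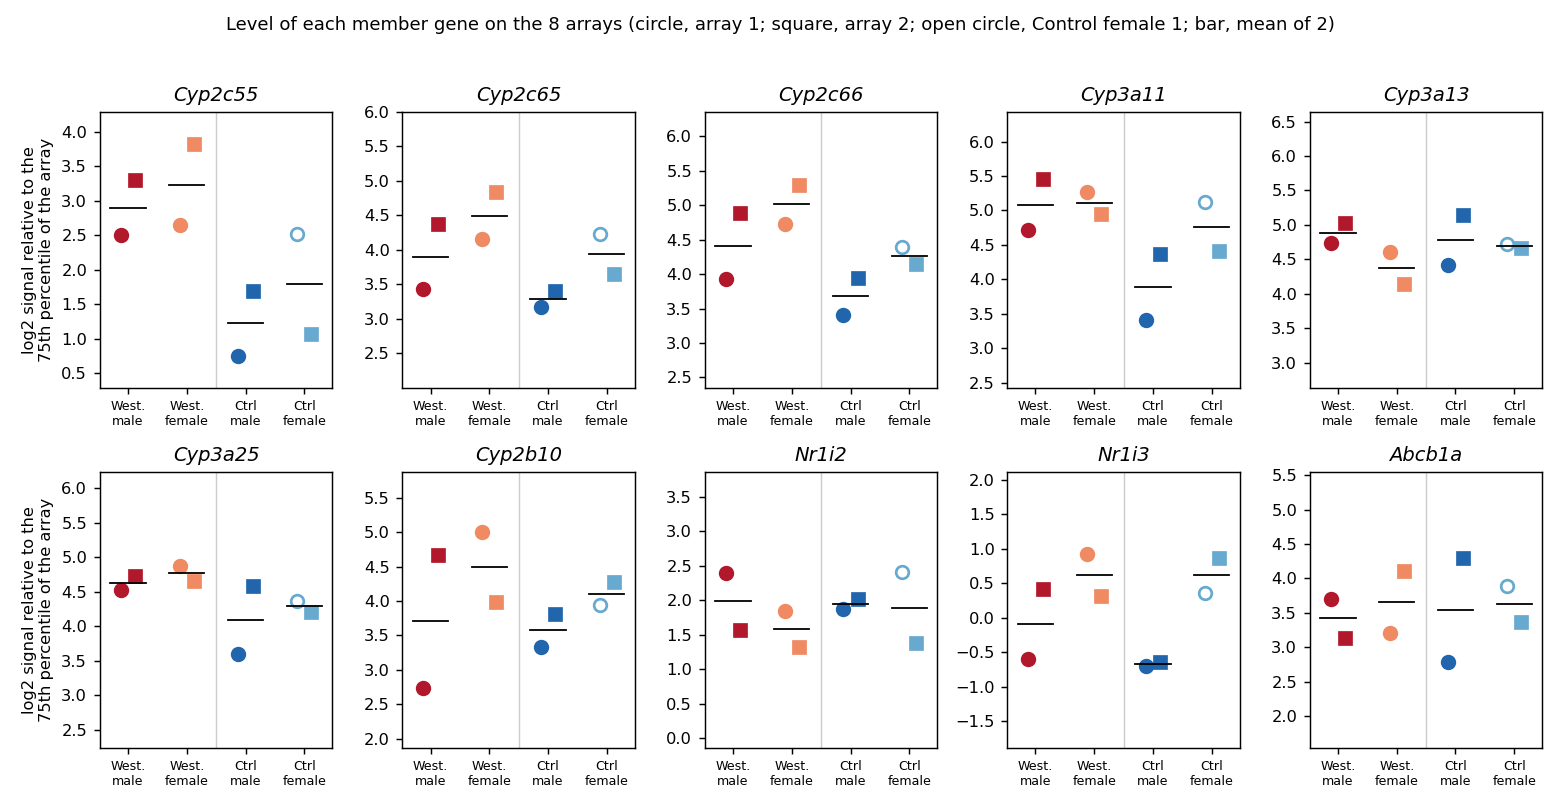
Level of each gene (log2 signal relative to the 75th percentile of the array, vertical axis) in the 4 groups of 2 arrays, with a bar at the mean of 2. Every panel spans 4 log2 units. Cyp2c55 is lowest on 3 of the 4 control arrays, while the open circle of the library labelled Control female 1 lies at 2.52, within 0.1 of Western male 1 at 2.50.

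Cyp2c55 encodes a P450 that oxidises arachidonic and linoleic acid, and it showed the widest diet difference of the 10 genes. Its level was 2.50 and 3.29 on the Western male arrays and 2.64 and 3.83 on the Western female arrays. On the control diet it was 0.75 and 1.69 on the male arrays and 2.52 and 1.06 on the female arrays. Every Western array lay above every control array other than the library labelled Control female 1, which exceeded Western male 1 by a narrow margin. The mean was 3.07 ± 0.62 on the Western diet and 1.51 ± 0.78 on the control diet (SD, n = 4 each). The difference of 1.56 ± 0.48 (SE), 2.95-fold, had a 95% interval of 0.40 to 2.72, an unadjusted p of 0.0168 by limma and an adjusted p of 0.995. In signal units the probe read 1015 on Control female 2 and 9284 on Western female 2.

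The Cyp2c55 difference had the same direction within both sexes. It was 1.68 ± 0.67 in males and 1.44 ± 0.67 in females (SE, n = 2 arrays each), with adjusted p of 1.00 and 0.954 by limma. Leaving out the library labelled Control female 1 gave 2.17 in females, and leaving out Control female 2 gave 0.72. Leaving out 1 array at a time gave differences of 1.20, without Control female 2, to 1.92, without the library labelled Control female 1. Without that library the diets did not overlap for Cyp2c55 and Cyp3a11, with the Western diet higher, as for 2.18% of all genes. Without Western male 1 the same held for Cyp2c55, Cyp2c66 and Cyp3a25 (2.19% of all genes), and without Control male 2 for Cyp3a25 (1.78%). It held for 0 of the 10 genes without any 1 of the other 5 arrays, beside 1.31% to 2.25% of all genes (2.13% without Control male 1, 1.98% without Control female 2), and for 0 of the 10 with all 8 arrays (0.864%). The arrays of slide 1 alone (replicate 1 of each group) gave 0.94. On slide 3 the single pair Western female 2 minus Control female 2 gave 2.77. Both are values without a test.

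Cyp2c65 and Cyp2c66 are neighbours of Cyp2c55 on chromosome 19 and encode closely related enzymes of the gut epithelium. Cyp2c66 measured 3.93 and 4.89 in Western males and 4.72 and 5.30 in Western females, against 3.41 and 3.95 in control males and 4.39 and 4.14 in control females. Western male 1 was the lowest Western array and lay among the controls, while the other 3 Western arrays lay above all 4 controls. The means of 4.71 ± 0.58 on the Western diet and 3.97 ± 0.42 on the control diet (SD, n = 4 each) differed by 0.74 ± 0.29 (SE), 1.67-fold, with an unadjusted p of 0.0425 and an adjusted p of 0.995 by limma.

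Cyp2c65 followed the same order of arrays in large part. Its level was 3.43 and 4.38 in Western males and 4.16 and 4.84 in Western females, against 3.17 and 3.40 in control males and 4.23 and 3.65 in control females. The library labelled Control female 1 lay above 2 of the 4 Western arrays. The difference was 0.59 ± 0.30 (SE; 95% interval -0.14 to 1.32), which did not pass (adjusted p = 0.995 by limma). It was 0.35 without Western male 2 and 0.38 with slide as a block. Within slide 1 it was 0.09 for Cyp2c65 and 0.43 for Cyp2c66. On slide 3, for Western female 2 minus Control female 2, it was 1.19 and 1.16. Slide 1 holds both the library labelled Control female 1 and Control male 1.

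Across the 8 arrays Cyp2c65 and Cyp2c66 were the most alike of the 45 pairs among the 10 genes. Their profiles, each centred on its own mean, differed by a root mean square of 0.14 log2 units, against 0.33 for the next pair, Cyp3a11 and Cyp3a25. The files hold no probe sequences, so whether a probe also picks up a close paralog was not tested. The promoters of the 3 Cyp2c genes and of Cyp3a11 are shown because these 4 genes had the widest diet differences. They come from RefSeq (build GRCm38.p6), whose table held all 10 genes. Each runs from 250 bases before to 50 bases after the annotated start, 5′ to 3′ on the strand of the gene. Capitals mark exact matches to the letters TATAAA of a TATA box, an HNF4 core (CAAAGTCCA) or a nuclear receptor hexamer (AGGTCA or AGTTCA, or their reverse complements). Whether a match works as such a site was not tested. Variants were not searched, such as tatataag, which Cyp2c65 and Cyp2c66 hold in lower case nearer the start than their TATAAA.
Cyp2c55, chr19:39006769-39007068, plus strand: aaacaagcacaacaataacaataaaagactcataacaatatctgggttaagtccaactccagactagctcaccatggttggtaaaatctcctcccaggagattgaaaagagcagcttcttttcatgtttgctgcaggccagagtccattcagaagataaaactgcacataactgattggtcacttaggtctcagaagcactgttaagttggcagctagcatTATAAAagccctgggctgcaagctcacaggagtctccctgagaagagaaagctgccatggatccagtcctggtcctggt
Cyp2c65, chr19:39060756-39061055, plus strand: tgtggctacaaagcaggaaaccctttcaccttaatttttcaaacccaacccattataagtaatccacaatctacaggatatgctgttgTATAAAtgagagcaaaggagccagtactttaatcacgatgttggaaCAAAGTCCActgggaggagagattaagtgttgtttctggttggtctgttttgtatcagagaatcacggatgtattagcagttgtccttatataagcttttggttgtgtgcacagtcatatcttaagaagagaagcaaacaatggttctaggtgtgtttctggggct
Cyp2c66, chr19:39113648-39113947, plus strand: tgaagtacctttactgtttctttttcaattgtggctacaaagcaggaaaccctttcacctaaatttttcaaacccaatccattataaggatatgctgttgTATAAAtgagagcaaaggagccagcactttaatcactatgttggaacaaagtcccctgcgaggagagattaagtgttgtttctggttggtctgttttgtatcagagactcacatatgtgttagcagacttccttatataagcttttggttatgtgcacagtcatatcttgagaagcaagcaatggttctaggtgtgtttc
Cyp3a11, chr5:145879805-145880104, minus strand: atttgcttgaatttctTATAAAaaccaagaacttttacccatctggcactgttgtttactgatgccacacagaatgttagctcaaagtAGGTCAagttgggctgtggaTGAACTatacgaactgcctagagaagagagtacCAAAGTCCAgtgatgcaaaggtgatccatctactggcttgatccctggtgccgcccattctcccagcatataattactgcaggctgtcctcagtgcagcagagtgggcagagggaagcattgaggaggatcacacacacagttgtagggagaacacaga

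The Cyp2c65 and Cyp2c66 promoters were identical at 77.8% of aligned columns, against a median of 46.3% over the 45 pairs of the 10 genes. Cyp2c55 was identical to Cyp2c65 at 53.2%. Counted from the annotated start, the TATAAA match begins at -29 in Cyp2c55, at -162 in Cyp2c65, at -150 in Cyp2c66 and at -234 in Cyp3a11. TATAAA was present on either strand in 13.6% of the 32851 promoters of that length. HNF4 is a receptor of enterocytes and hepatocytes, and its core CAAAGTCCA was present in Cyp2c65 and Cyp3a11 and in 0.475% of all promoters. Cyp3a11 held 1 AGGTCA and 1 AGTTCA hexamer, present in 16.3% and 14.0% of all promoters, and Cyp3a25 and Abcb1a held AGGTCA and AGTTCA matches too. Neither hexamer was found in the 3 Cyp2c windows.

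PXR and CAR bind pairs of such hexamers. None of the windows of the 10 genes held a pair of hexamers (AGGTCA or AGTTCA in either place) as a direct repeat with NNN or NNNN between them, or as an everted repeat with NNNNNN between them, searched on both strands. Over all promoters these letters were as rare as 0.0122%, 0.0274% and 0.00913%, and known response elements of P450 genes often lie far outside such windows.

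Cyp3a11 is the main drug-oxidising P450 of the mouse, counterpart of human CYP3A4. Its brighter probe measured 4.71 and 5.45 in Western males and 5.27 and 4.94 in Western females, against 3.40 and 4.37 in control males and 5.12 and 4.41 in control females. All 4 Western arrays lay above 3 of the 4 controls, and the library labelled Control female 1 lay within the Western range. The difference was 0.77 ± 0.32 (SE), 1.70-fold, with a 95% interval of -0.02 to 1.55 and an adjusted p of 0.995 by limma. The second Cyp3a11 probe gave 0.86.

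Cyp3a11 differed by 1.20 ± 0.45 in males and by 0.34 ± 0.45 in females (SE, n = 2 arrays each). The difference between the sexes was -0.85 ± 0.64 (females minus males), with an adjusted p of 1.00 by limma, and it was -0.37 without the low array Control male 1 and -0.50 without the library labelled Control female 1. The female difference was -0.01 on leaving out Control female 2. Control male 1 was the lowest array for 7 of the 10 genes, all but Cyp3a13, Cyp2b10 and Nr1i2. On it, enterocyte markers lay 0.32 below and smooth muscle markers 3.53 above the mean of the arrays. Enterocyte markers were as low on Western female 2 (-0.32), where Cyp2c55, Cyp2c65 and Cyp2c66 were highest. The part of these markers in the gene values was not tested.

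Cyp3a25, a paralog expressed in intestine and liver, measured 4.53 and 4.74 in Western males and 4.88 and 4.66 in Western females, against 3.59 and 4.58 in control males and 4.37 and 4.20 in control females. Only Control male 2 overlapped the Western range. The means of 4.70 ± 0.15 on the Western diet and 4.19 ± 0.43 on the control diet (SD, n = 4 each) differed by 0.51 ± 0.25 (SE; adjusted p = 0.995 by limma), 0.27 without Control male 1. Cyp3a13, another enzyme of this family, measured 4.74 and 5.03 in Western males and 4.61 and 4.14 in Western females, against 4.42 and 5.14 in control males and 4.72 and 4.67 in control females. These ranges overlapped widely, the difference was -0.11 ± 0.22 (SE; 95% interval -0.65 to 0.44), and the second probe gave -0.11. The Cyp3a13 difference was 0.11 ± 0.32 in males and -0.32 ± 0.32 in females (SE), and that between the sexes was -0.42 ± 0.45, with an adjusted p of 1.00 by limma.

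**Figure D2:**
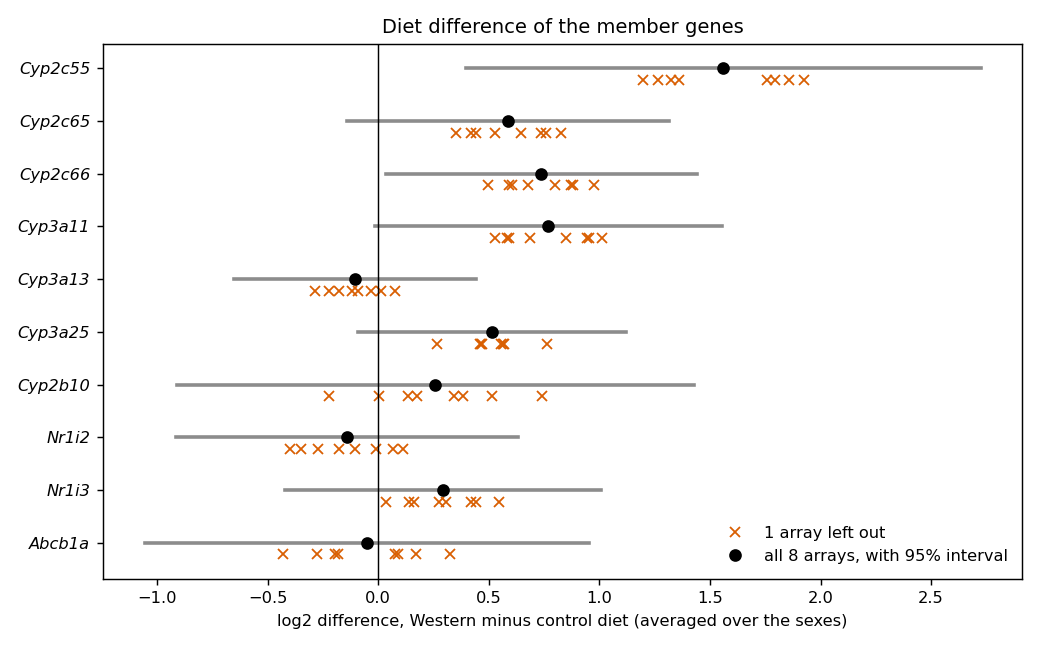
Difference between the diets for each gene (log2, Western minus control, horizontal axis), as black points with 95% intervals from limma, and orange crosses for the 8 fits that each leave out 1 array. The intervals of Cyp2c55 and Cyp2c66 lie above 0 before adjustment, and the crosses of Cyp3a13, Cyp2b10, Nr1i2 and Abcb1a fall on both sides of 0.

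For both receptors the levels on the diets overlapped and the interval of the difference spanned 0. Nr1i2, which encodes PXR, measured 2.40 and 1.57 in Western males and 1.84 and 1.32 in Western females, against 1.88 and 2.03 in control males and 2.40 and 1.39 in control females. The diets spanned nearly the same range, and the difference was -0.14 ± 0.32 (SE; 95% interval -0.91 to 0.63, adjusted p = 0.999 by limma). Nr1i3, which encodes CAR, measured -0.60 and 0.42 in Western males and 0.92 and 0.32 in Western females, against -0.70 and -0.64 in control males and 0.36 and 0.87 in control females. Its diet difference was 0.29 ± 0.29 (SE; 95% interval -0.42 to 1.01, adjusted p = 0.995 by limma), with 0.58 ± 0.41 in males and 0.01 ± 0.41 in females. It was 0.55 without Western male 1 and 0.04 without Western male 2.

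Cyp2b10, the P450 most used as a readout of CAR in mouse liver, measured 2.74 and 4.67 in Western males and 4.999 and 3.98 in Western females, against 3.33 and 3.82 in control males and 3.94 and 4.27 in control females. The lowest and the highest array were both on the Western diet. The difference was 0.26 ± 0.48 (SE; 95% interval -0.91 to 1.43, adjusted p = 0.999 by limma). Abcb1a, the P-glycoprotein that pumps drugs back into the gut lumen, measured 3.70 and 3.13 in Western males and 3.20 and 4.10 in Western females, against 2.79 and 4.30 in control males and 3.89 and 3.37 in control females. Control arrays held both its lowest and its highest level, and the difference was -0.05 ± 0.41 (SE; 95% interval -1.06 to 0.95, adjusted p = 0.999 by limma).

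The series design also sets females against males. Nr1i3 had the widest difference of the 10 genes here, with 0.62 ± 0.32 on the female arrays and -0.38 ± 0.54 on the male arrays (SD, n = 4 each). Western female 1 and Control female 2 lay above all 4 male arrays, while Western female 2 and the library labelled Control female 1 lay below Western male 2 and above the other 3 male arrays. The difference of 0.997 ± 0.29 (SE) had a 95% interval of 0.28 to 1.71 and an unadjusted p of 0.0143, and it did not pass the adjustment (0.906 by limma). It was 1.13 without the library labelled Control female 1 and 0.74 to 1.25 over the 8 fits that each leave out 1 array, and the second probe of the gene followed the first within a root mean square of 0.15.

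For sex, limma called 0 of the 10 genes and 0 of all genes (0%). The female arrays here include the library labelled Control female 1, whose Eif2s3y of 1.90 was at male level. These counts therefore follow the labels and cannot settle whether the sexes differ. At an unadjusted p under 0.05, 1 of the 10 genes was higher in females, beside 2.66% of all genes, and 0 were lower, beside 1.19%. The sexes did not overlap for 0 of the 10 genes, beside 1.96% of all genes higher and 1.03% lower in females. Cyp2b10 differed by 0.66 ± 0.48 (SE) between females and males, Cyp2c65 by 0.63 ± 0.30, Cyp2c66 by 0.60 ± 0.29, Cyp2c55 by 0.45 ± 0.48 and Cyp3a11 by 0.45 ± 0.32. Cyp3a25 and Abcb1a differed by 0.17 and 0.16, Nr1i2 by -0.23 and Cyp3a13 by -0.30. Adjusted p lay between 0.906 and 0.965 for the 10 genes by limma. Single arrays moved these values by over 1.5 times. Without Western male 1 the difference was 0.18 for Cyp2b10, 0.39 for Cyp2c65 and 0.36 for Cyp2c66, without Control male 1 it was 0.21 for Cyp3a11, and without the library labelled Control female 1 it was 0.09 for Cyp2c55. Nr1i3 and Cyp2b10 were the fourth most alike of the 45 pairs, with a root mean square difference of 0.38 between their centred profiles.

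Within the sexes, limma called 0 of the 10 genes and 0 of all genes for diet (0% in males and 0% in females). At an unadjusted p under 0.05 Cyp2c55 and Cyp3a11 were higher in Western males, beside 0.582% of all genes, and 0 of the 10 genes passed in females, beside 0.601% of all genes higher and 4.5% lower. Arrays of the diets did not overlap, with the Western diet higher, for 4 of the 10 genes in males (Cyp2c55, Cyp2c65, Cyp3a11 and Nr1i3) and for 12.1% of all genes. In females this held for Cyp2c55, Cyp2c66 and Cyp3a25, which is 3 of 10 beside 9.59% of all genes, and Cyp3a13 was lower on both Western female arrays, beside 21.8% of all genes. The differences in females were 0.56 ± 0.42 for Cyp2c65, 0.75 ± 0.41 for Cyp2c66 and 0.48 ± 0.35 for Cyp3a25, and in males 0.62 ± 0.42, 0.73 ± 0.41 and 0.55 ± 0.35 (SE). The test of a sex difference in the diet effect called 0 of the 10 genes and 0 of all genes (0%). At an unadjusted p under 0.05 it placed 0 of the 10 genes, beside 0.46% of all genes higher and 1.16% lower, and Nr1i3 had -0.57 ± 0.59 (females minus males, adjusted p = 1.00 by limma). Without the library labelled Control female 1, which leaves 1 array in that group, limma called 392 genes for diet in females, 0 of them among the 10.

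**Figure D3:**
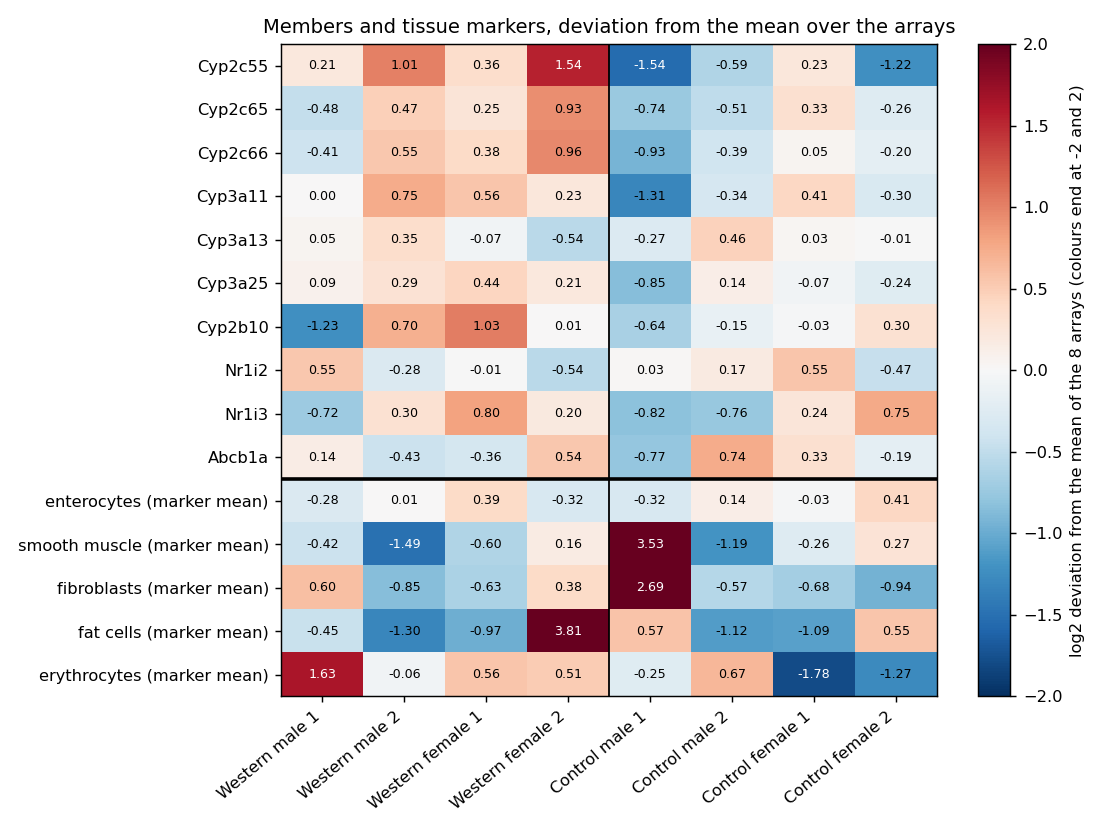
Deviation of each gene from its mean over the 8 arrays (log2, colour and printed value), with the mean deviation of 5 marker lists below the line. Cyp2c55, Cyp2c65, Cyp2c66 and Cyp3a11 are highest on Western male 2 or Western female 2 and lowest on Control male 1, where smooth muscle markers reach 3.53.

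The marker lists give the makeup of the arrays beside these values. Enterocyte markers deviated by -0.32 to 0.39 from their mean on the Western arrays and by -0.32 to 0.41 on the control arrays, and their median diet difference was -0.03. That median covers genes on both sides of 0, with 6 above and 7 below. The brush border enzyme Sis had -1.06 ± 0.16 (SE; unadjusted p = 0.000599, adjusted p = 0.407 by limma). Every Western array lay below every control array for Sis, as for 2.29% of all genes. The glucose transporter Slc5a1 had -0.92 ± 0.32 and the fatty acid binding protein Fabp1 0.82 ± 0.37 (SE; adjusted p = 0.995 each by limma). The mean of the fat cell markers reached 3.81 on Western female 2, where Cyp2c55, Cyp2c65 and Cyp2c66 were highest, and lay between -1.30 and 0.57 elsewhere. Of the 5 fat cell markers measured, Cidec went the other way, with a level of 2.54 on Western female 2 and 3.995 on Western female 1. Erythrocyte markers lay between -0.06 and 1.63 on the Western arrays and between -1.78 and 0.67 on the control arrays, and all 5 erythrocyte markers measured were above 0 for diet, with a median difference of 1.38. All 8 smooth muscle markers were below 0, with a median of -1.30. Their mean deviation was 3.53 on Control male 1 and -1.19 to 0.27 on the other control arrays, against -1.49 to 0.16 on the Western arrays. The part of these lists in the gene values was not tested.

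Of all 21289 other genes, those with a profile most like that of Cyp2c55 over the 8 arrays were Slc35e3, Ugdh, Klf15, Paqr7 and Gstm1. Their centred profiles differed from it by a root mean square of 0.41, 0.42, 0.44, 0.48 and 0.48 log2 units, against a median of 1.07 over all genes. Ugdh, which makes UDP-glucuronic acid, measured 5.80 and 6.79 in Western males and 6.08 and 6.61 in Western females, against 4.86 and 5.06 in control males and 6.07 and 5.26 in control females. The glutathione transferase Gstm1 measured 1.91 and 3.51 in Western males and 2.80 and 3.74 in Western females, against 1.33 and 1.27 in control males and 3.37 and 1.71 in control females. As with Cyp2c55, the library labelled Control female 1 was the highest control array for both, and also for Slc35e3, Klf15 and Paqr7. These genes were picked for their likeness to Cyp2c55 over these same arrays, so this is not a separate observation. Cyp2c66, Cyp2c65 and Cyp3a11 ranked 12, 17 and 19 in this order, Cyp3a25 ranked 104, and the other members ranked 3001 or lower.

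**Figure D4:**
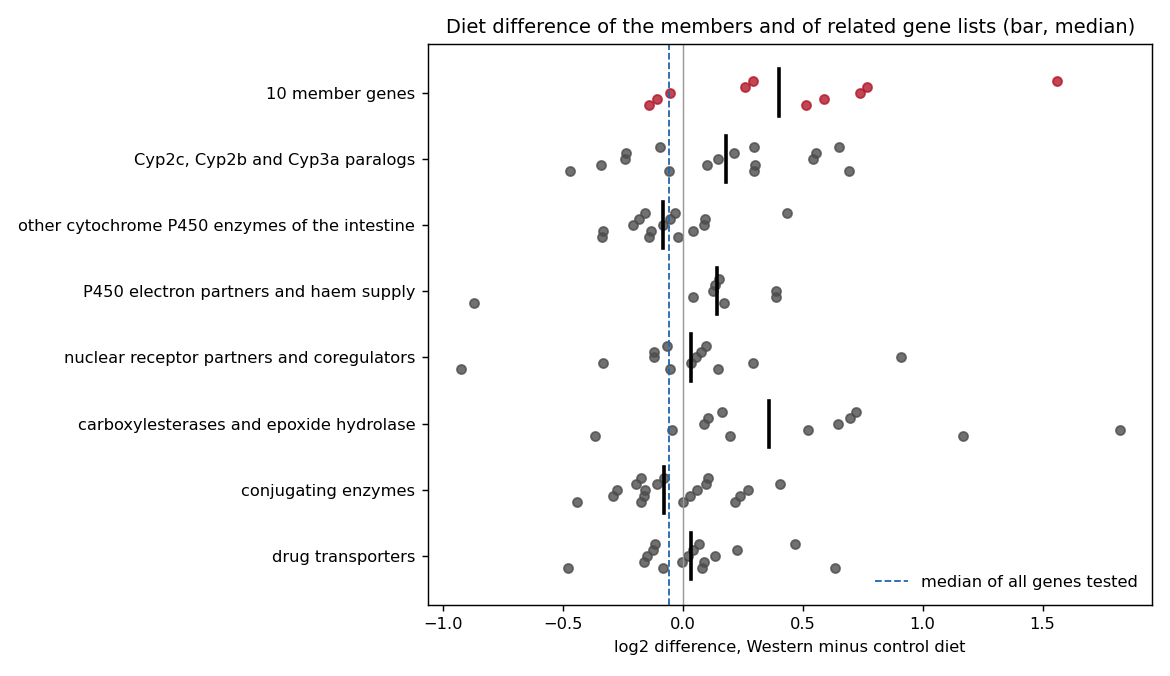
Diet difference (log2, Western minus control, horizontal axis) of the 10 genes and of the measured genes of 7 related lists, 1 point per gene, with a bar at each median. The median of the carboxylesterase list is 0.36 and that of the other P450 enzymes is -0.08, beside -0.06 for all genes tested (dashed).

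The 7 related lists held 116 further genes, of which 99 were measured and 0 passed for diet (0% of all genes passed). In the list of other Cyp2c, Cyp2b and Cyp3a genes, 16 of 22 were measured, 10 were above and 6 below 0, and the median difference was 0.18. The 4 with the smallest p were Cyp3a genes, Cyp3a41b at 0.69 ± 0.31, Cyp3a16 at 0.65 ± 0.32, Cyp3a57 at 0.55 ± 0.27 and Cyp3a59 at 0.54 ± 0.27 (SE; adjusted p = 0.995 each by limma). Of the 16 genes, only Cyp3a57 had diets that did not overlap, with the Western diet higher, beside 0.864% of all genes. Its lowest Western value was 3.37 and its highest control value 3.34. All 4 Cyp3a genes were lowest on Control male 1, as Cyp3a11 was. Their sequences are close to that of Cyp3a11, and probes shared between them were not tested for.

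Other P450 enzymes of the intestine had a median of -0.08, with 4 above and 11 below 0 among 15 measured. Cyp2e1 had 0.43 ± 0.31, Cyp4f16 -0.21 ± 0.27, Cyp2u1 -0.33 ± 0.28 and Cyp27a1, which hydroxylates sterols, -0.33 ± 0.42 (SE). Among the partners that feed electrons and haem to P450 enzymes, 7 of 8 were above 0. Por, the reductase of all microsomal P450 enzymes, had 0.39 ± 0.37, the cytochrome Cyb5b 0.15 ± 0.17 and the haem oxygenase Hmox1 0.39 ± 0.23 (SE). Alas1, which starts haem synthesis, had the opposite sign. It measured 4.22 and 3.96 in Western males and 4.06 and 3.88 in Western females, against 4.46 and 5.32 in control males and 4.92 and 4.90 in control females. Every Western array lay below every control array, as for 2.29% of all genes, and the difference was -0.87 ± 0.23 (SE), with an unadjusted p of 0.00849 and an adjusted p of 0.995 by limma.

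Receptor partners and coregulators had a median of 0.03 over 13 genes. Ppargc1a, a coactivator of mitochondrial genes, gluconeogenesis and Alas1, had -0.92 ± 0.40, Ncoa1 -0.33 ± 0.21, the bile acid receptor Nr1h4 0.29 ± 0.25 and the repressor Nr0b2, near background, 0.91 ± 0.96 (SE). Carboxylesterases and epoxide hydrolases, enzymes that split esters and epoxides, had the highest list median at 0.36, with 10 of 12 measured genes above 0. Ces1g had 1.82 ± 0.81, Ces1f 1.17 ± 0.61, Ces1e 0.72 ± 0.39 and Ces2a 0.52 ± 0.34 (SE; adjusted p = 0.995 each by limma). Within slide 1 these were -0.11, -0.24, -0.06 and 0.07. On slide 3, for Western female 2 minus Control female 2, they were 3.21, 2.34, 1.60 and 0.82.

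Conjugating enzymes had a median of -0.08 over 19 measured genes, 9 above and 10 below 0. Ugt1a10, which attaches glucuronic acid, had 0.40 ± 0.29, the methyltransferase Tpmt 0.24 ± 0.16, and Papss1, which makes the sulfate donor, -0.29 ± 0.20 (SE). Drug transporters had a median of 0.03 over 16 genes, 9 above and 7 below 0. The efflux pump Abcc4 had 0.63 ± 0.30, the carnitine transporter Slc22a5 0.47 ± 0.23, and the organic anion transporters Slco3a1 and Slco2b1 -0.48 ± 0.19 and -0.16 ± 0.19 (SE). Slco3a1 was the 1 transporter of 16 whose diets did not overlap, lower on the Western diet, beside 2.29% of all genes.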

How the data were processed

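Per the file headers, each deposited file is the output of 1 Agilent array (design 026655, 1 colour) from Feature Extraction 10.7.3.1. The values used are the processed signal, an intensity on a linear scale, background-subtracted by that software, as deposited; no normalization between arrays is recorded in the files. The flags for outliers, background and controls (other values in the deposited files) were used as filters. From these, 1377 control spots and 94 to 216 outlier spots per array were left out, log2 was taken, each array's 75th percentile was subtracted and spots of a probe were averaged. Accessions were named through a RefSeq table (GRCm38.p6), for 26412 of 39429 probes. A probe was kept if 2 or more arrays had it well above background (25732 were), and the brightest per gene was tested with limma 3.58.1 (R 4.3.3) as 4 group means over 8 arrays (4 residual and 2.01 prior degrees of freedom), with Benjamini-Hochberg adjustment over 21302 genes at 0.05, of which 14823 have a symbol and the rest are unnamed accessions. Cyp3a11, Cyp3a13 and Nr1i3 have 2 probes each.

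Named were the 10 genes, the 4 list genes with the smallest p for diet per list, and the 5 genes most like Cyp2c55. One result under this rule is not reported here. Eif2s3y was named as a check of the sex labels. All 10 hepatocyte markers were named as a check of the tissue, with members of the enterocyte list chosen after their values were seen. The members, lists and rules were chosen with earlier results of these data known. The fit was tested on simulated data for 25716 probes, with known diet changes and independent noise for each probe. It called 14% of probes changed by log2 1 and 66% of those changed by log2 2, with 8 false calls. Effects shared by the probes of an array, which the real arrays may carry, were not simulated. In that simpler setting a true change of the size seen in the 10 genes can go uncalled. Replicate numbers are shared by the groups, but the labels do not say that they pair samples. The number of arrays limits the precision. Slide and scan day came from the file headers: slide 1 holds replicate 1 of all groups, slide 2 Western male 2 and slide 3 the other 3 arrays, and slide 3 was scanned on day 2.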

Additional observations from a re-analysis of the deposited data

How the results depend on the processing

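Each of 65 log2 differences was recomputed under 18 alternatives, and of these 1170 values 0 passed an adjusted p of 0.05 by limma (smallest 0.128) and 33 changed sign. Cyp2c55, Cyp2c65, Cyp2c66, Cyp3a11 and Cyp3a25 kept a positive diet difference under all of them. The alternatives chosen after seeing the data were normexp on the median spot signal, since the planned one on the mean spot signal was not run because the files hold none, and leaving out the library labelled Control female 1 and Control male 1 together. In that last setting the count of genes called for diet in females was 677 and that for sex was 1. The Cyp2c55 difference between females and males was then -0.15, that of Cyp3a25 -0.12 and that of Abcb1a -0.35. The diet difference of Nr1i2 was 0.075, that of Cyp3a13 in males -0.26 and that of Nr1i3 in females -0.25. With slide as a block the diet difference was -0.24 for Cyp2b10, 0.25 for Abcb1a and -0.0075 for Cyp3a13 in males, and the sex difference of Abcb1a was -0.14. With scan day as a block Abcb1a had 0.11. Nr1i3 in females had -0.073 with normexp and -0.011 with the mean of its probes. The cause was not tested.

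Over the fits that each leave out 1 array, genes called ranged from 0 to 392 for diet in females (392 on leaving out the library labelled Control female 1, and 2 on leaving out Control female 2), 0 to 2 for the difference between the sexes in the diet effect and 0 to 3 for sex. Differences that changed sign ranged from -0.29 to 0.076 for Cyp3a13, -0.22 to 0.74 for Cyp2b10, -0.40 to 0.11 for Nr1i2, -0.43 to 0.33 for Abcb1a, -0.43 to 0.013 for Cyp4f16 and -0.79 to 0.12 for Cyp27a1 by diet. By sex they ranged from -0.081 to 0.41 for Cyp3a25, -0.49 to 0.022 for Nr1i2 and -0.22 to 0.54 for Abcb1a. They ranged from -0.012 to 0.70 for Cyp3a11 and -0.30 to 0.31 for Nr1i3 by diet in females, and from -0.26 to 0.47 for Cyp3a13 by diet in males. Quantile normalization turned the sign of all-gene medians: to 0.04, against -0.06, for diet, to 0.06, against -0.11, for diet in females, to 0.04, against -0.14, for the difference between the sexes in the diet effect and to -0.02, against 0.075, for sex. With the replicate block, which pairs arrays by number, limma called 0 genes in every comparison and Cyp2c55 kept 1.56 (adjusted p = 0.985). Deviations of same-numbered arrays correlated between -0.12 and 0.35 over pairs of groups. Replicate 1 of every group is on slide 1 and replicate 2 is not, so these correlations cannot separate pairing from slide. The numbers were not taken as pairs, since the labels do not say that they pair samples. The brightness of the probes does not limit these genes, as all 13 probes were well above background on all 8 arrays.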
